A study of Mus musculus with 10 samples.

Results

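The immediate early AP-1 and Egr factors are 10 transcription regulator genes, namely Fos, Fosb, Fosl2, Jun, Junb, Jund, Atf3, Egr1, Egr2 and Ier2. They were taken by symbol from the GENCODE annotation of mm10, and each matched 1 of the 48526 Ensembl gene identifiers of the count table. The libraries were labelled aortic endothelial cells, sorted by fluorescence-activated cell sorting from mice of the strain given as ApoE. Of the 10 libraries, 5 came from mice exposed to acute mental stress, for 3 h on each of 3 consecutive days before the aorta was taken, and 5 from non-stressed mice. The labels state neither age nor diet nor the interval between the last exposure and sampling. Whether each library held 1 animal or pooled ones is likewise unstated, and the p-values below reflect only differences between these libraries, which may be technical.

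AP-1 is a family of dimers of basic leucine zipper proteins. Fos family proteins (Fos, Fosb, Fosl2) bind DNA only with a partner, usually from the Jun family (Jun, Junb, Jund), and Atf3 of the ATF/CREB family can join the same dimers. Egr1 and Egr2 are zinc finger factors that bind GC-rich sites, and Ier2 encodes a small nuclear protein. Most of these genes are called immediate early because they are switched on within minutes and without new protein synthesis. Kinase cascades do so through factors already present in the cell, such as SRF, ELK and CREB. The messenger RNAs of such genes are short-lived, and in myeloid cells they mark recent signalling through MAP kinases. This holds less well for Jund, which resting cells express steadily, and Fosl2, which accumulates later.

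The sequences just upstream of Fos, Fosb, Jun and Junb are shown because these are the AP-1 genes whose transcripts varied most between libraries or stood highest in 1 of them. They are the 250 bases before the start site in RefSeq's promoter table (GRCm38.p6, the assembly of mm10), printed 5′ to 3′ on the gene's strand with the motif matches named below in capitals. The window of Fos is chr12:85473640-85473889 on the plus strand. That of Fosb is chr7:19310046-19310295, that of Jun is chr4:95052223-95052472 and that of Junb is chr8:84978749-84978998, all on the minus strand.
Fos: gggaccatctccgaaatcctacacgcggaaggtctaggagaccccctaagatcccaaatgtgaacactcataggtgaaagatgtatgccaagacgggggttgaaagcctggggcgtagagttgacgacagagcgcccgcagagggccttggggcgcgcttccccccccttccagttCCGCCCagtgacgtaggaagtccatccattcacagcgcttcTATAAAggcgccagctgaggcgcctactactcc
Fosb: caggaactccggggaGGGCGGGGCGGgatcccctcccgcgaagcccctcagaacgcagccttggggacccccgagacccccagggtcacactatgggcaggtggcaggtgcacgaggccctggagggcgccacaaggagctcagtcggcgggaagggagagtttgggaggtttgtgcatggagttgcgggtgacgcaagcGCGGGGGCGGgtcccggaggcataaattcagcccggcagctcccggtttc
Jun: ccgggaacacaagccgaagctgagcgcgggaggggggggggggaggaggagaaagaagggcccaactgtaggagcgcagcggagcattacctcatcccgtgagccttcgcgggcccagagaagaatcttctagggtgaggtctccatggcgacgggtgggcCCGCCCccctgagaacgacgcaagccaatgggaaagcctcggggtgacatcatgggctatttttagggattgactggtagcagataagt
Junb: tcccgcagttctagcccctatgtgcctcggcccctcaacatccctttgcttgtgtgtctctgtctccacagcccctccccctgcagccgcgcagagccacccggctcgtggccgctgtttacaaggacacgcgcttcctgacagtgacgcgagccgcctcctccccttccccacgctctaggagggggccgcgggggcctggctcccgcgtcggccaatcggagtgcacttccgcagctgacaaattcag

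The 6 motifs searched were looked for on both strands of such 250-base windows. The Fos window held a TATA box (TATAAA) starting 33 bases upstream of the start site, which 12.4% of all 32851 windows of the table also held, and a GC box (GGGCGG). A GC box lay in the windows of 6 of the 8 members in the table and in 32.7% of all windows. The EGR site (GCGNGGGCG) was found upstream of Fosb, starting 50 bases from the start site and overlapping a GC box, and upstream of Fosl2, against 4.70% of all windows. The CArG box, the core of the serum response element, lay upstream of Egr2 and in 1.47% of all windows. It was found at Egr2 start sites 2091 to 2455 bases from the GENCODE start, and not at the site 24 bases from it. The 8 members had 12 windows in all, so a member with several windows had more chances of a match than a single window. The cyclic AMP response element (TGACGTCA, 1.55% of all windows) and the AP-1 site (TGANTCA, 6.75%) matched no member's window. Only exact matches were sought, so variant sites and sites beyond the 250 bases were not examined. The start sites used for Jund and Atf3 lay 1210 and 34706 bases from their GENCODE starts. The Junb window held none of the 6 motifs.

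Total counts were 18020220 to 30168890 per stressed library and 24373063 to 38237346 per non-stressed library. Levels are given as CPM, the counts of a gene scaled to a library total of 1000000. A gene without reads could still have reached 0.0785 to 0.166 CPM, depending on the library, by counting error alone. Of the 12 endothelial markers, Tek, Emcn, Cldn5 and Ptprb were at 0 in every library. Cdh5 stood at 0 to 0.994 CPM, Nos3 at 0 to 0.452 CPM, and Kdr, Tie1 and Egfl7 at no more than 2.35 CPM. Esam reached 5.64 CPM, and Pecam1 at 12.2 to 46.8 CPM and Vwf at 16.0 to 44.8 CPM, which myeloid cells and platelets also express, were counted in every library. The 10 markers of monocytes and macrophages summed to 26825 to 34152 CPM in stressed and 22177 to 34195 CPM in non-stressed libraries, and Lyz2 alone to at least 15692 CPM. The levels below are therefore levels in libraries whose abundant markers are myeloid, and the cells that carried the transcripts were not identified. In such bulk samples, fewer cells of a type and less RNA per cell cannot be told apart. Stressed replicate 3, the shallowest library, stood apart from the other 9 in most of the 10 members. The members' fold changes are therefore given with and without it. Those of other genes include it unless stated. It was singled out with these values known.

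In GENCODE M21 on mm10 (start to end of the annotated gene, identifier as in the count table), the Fos family members here are Fos (ENSMUSG00000021250) at chr12:85473890-85477273 and Fosl2 (ENSMUSG00000029135) at chr5:32135801-32157842 on the plus strand and Fosb (ENSMUSG00000003545) at chr7:19302696-19310051 on the minus strand. Of the Jun family, Jun (ENSMUSG00000052684) at chr4:95049034-95052222 and Junb (ENSMUSG00000052837) at chr8:84974484-84978718 lie on the minus strand and Jund (ENSMUSG00000071076) at chr8:70698949-70700616 on the plus strand. Atf3 (ENSMUSG00000026628) at chr1:191170296-191218039 and Ier2 (ENSMUSG00000053560) at chr8:84661331-84662852 lie on the minus strand, and Egr1 (ENSMUSG00000038418) at chr18:34859823-34864984 and Egr2 (ENSMUSG00000037868) at chr10:67535475-67542188 on the plus strand.

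Per kilobase of annotated exon, Fos and Junb had the highest levels of the 10 genes in both groups. Fos averaged 451 ± 183 CPM per kb in stressed and 268 ± 119 in non-stressed libraries (SD, n = 5 each). Junb averaged 361 ± 150.4 CPM per kb in stressed and 265 ± 38 in non-stressed libraries (SD, n = 5 each). Fos and Junb did not differ beyond their spread, and Fos was the higher in 6 of 10 libraries. Ier2 came next in both groups, below Junb and above the next gene in 10 of 10 libraries. Jun, Atf3 and Jund followed at 44.4 to 71.6 CPM per kb as group means, with overlapping spreads and an order that changed between the groups. Fosb and Fosl2 were lower still, at 17.1 to 32.2 CPM per kb as group means. By mean ± SD, neighbours in this order were separated between Ier2 and the next gene in both groups, and in the non-stressed group also between Junb and Ier2 and between Egr1 and Egr2. Egr1 and Egr2 had the lowest group means. Egr1 averaged 21.6 ± 43.5 CPM per kb in stressed and 2.08 ± 0.643 in non-stressed libraries (SD, n = 5 each), and in stressed replicate 3 it stood at 99.3, above Atf3, Jund, Fosb and Fosl2. Egr2 averaged 0.580 ± 0.622 CPM per kb in stressed and 0.286 ± 0.298 in non-stressed libraries (SD, n = 5 each).

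**Figure D1:**
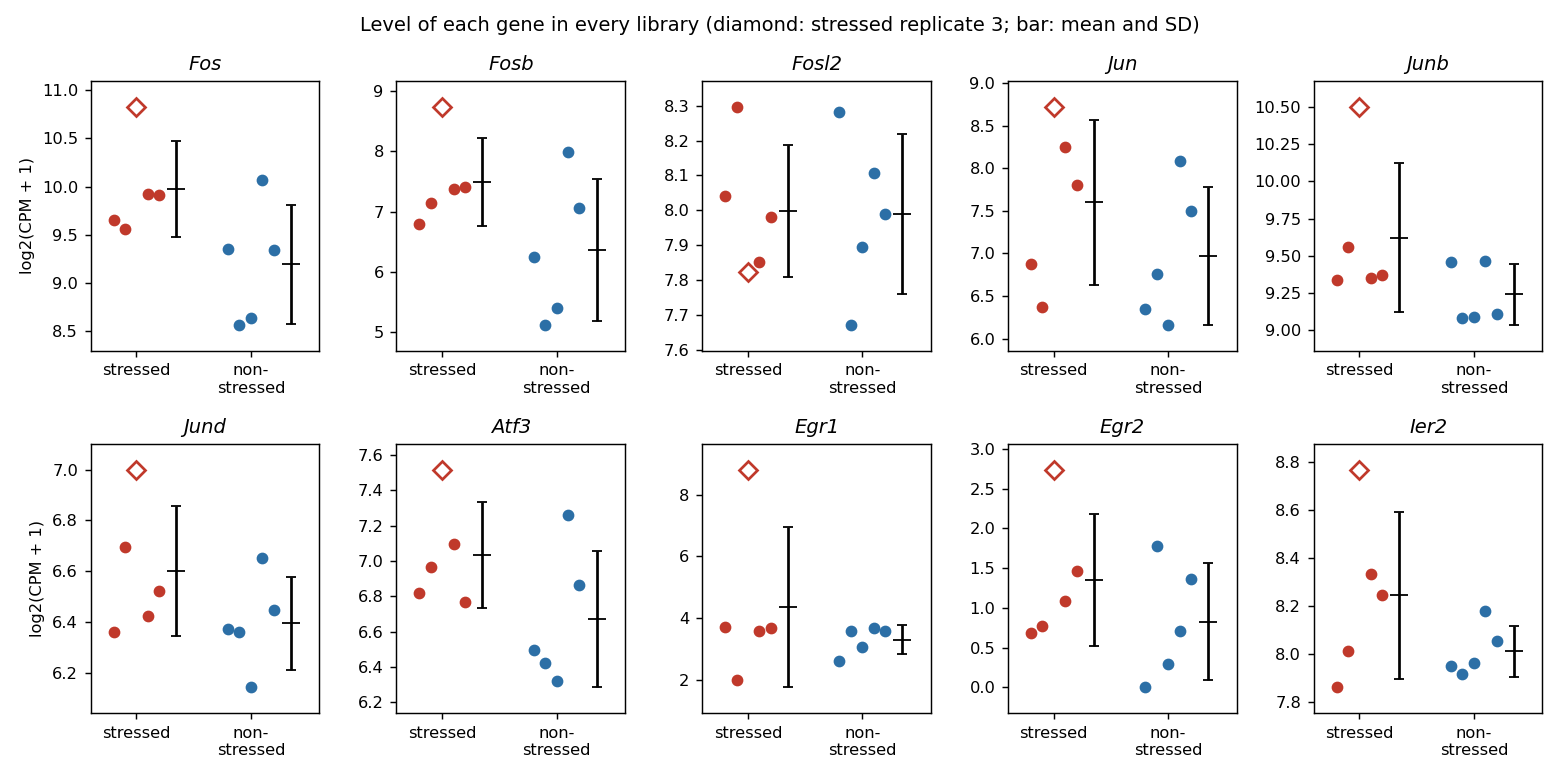
Level of each of the 10 genes in every library as log2(CPM + 1), with 5 stressed libraries (red, stressed replicate 3 as a diamond) left of 5 non-stressed ones (blue) and bars for the mean and SD of these log2 values. Stressed replicate 3 is the highest library for every gene except Fosl2, and the groups overlap for all 10.

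The question put to the libraries was whether acute stress went with a change in these factors. No member passed the test over all genes: edgeR's quasi-likelihood test with Benjamini-Hochberg adjustment called 0 of the 10, limma-voom and DESeq2 (which gave Egr1 no adjusted p) called 0, and the smallest adjusted p in edgeR was 0.829 (Egr1). Of the 13334 genes tested, edgeR called 0.0075%. All 10 members had a log2 fold change above 0, as had 50.9% of the genes tested, with a median of 0.57 against 0.004 over those genes. At an unadjusted p under 0.05, 3 members were higher (Fos, Junb and Egr1) and 0 were lower, against 2.59% and 2.95% of genes tested. For 0 members did all 5 stressed libraries lie above all 5 non-stressed ones, or all below, against 0.607% and 0.487% of the genes tested.

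Without stressed replicate 3 the size of these differences was smaller for every member except Fosl2. All 10 log2 fold changes stayed above 0, against 50.2% of the 13681 genes then tested, but the median was 0.14. In that edgeR fit 0 members were called, against 0.00731% of genes, and 0 had an unadjusted p under 0.05 in the higher direction, against 1.82% of genes. For 0 members did the 4 remaining stressed libraries all lie above the non-stressed ones, against 0.987% of genes.

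**Figure D2:**
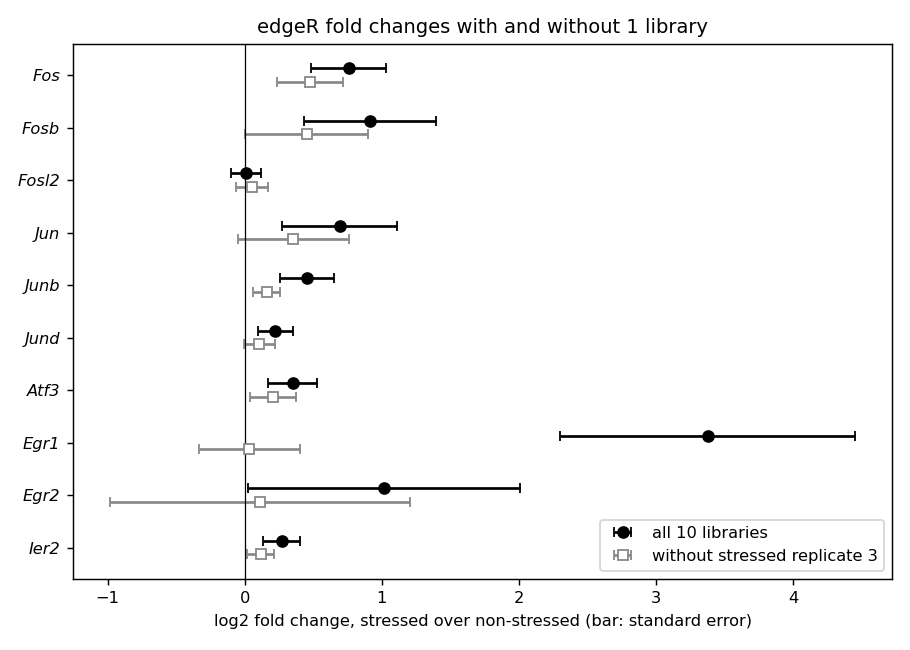
edgeR log2 fold change of stressed over non-stressed libraries for each gene, with its standard error, in all 10 libraries (black circles) and without stressed replicate 3 (open squares). Egr1 stands at 3.37 in all libraries and at 0.03 without that library, and every other square except that of Fosl2 lies nearer to 0 than its circle.

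Among the Fos family, Fos and Fosb had the higher group means in stressed libraries and Fosl2 averaged 256 CPM in both. Fos, the founding member, was counted at 806, 755, 1812, 969.6 and 965 CPM in stressed replicates 1 to 5, against 654, 379, 398, 1071 and 647 CPM in non-stressed replicates 1 to 5. All 5 stressed libraries lay above the non-stressed median, but non-stressed replicate 4 lay above 4 of them. Its log2 fold change was 0.76 (SE 0.28, adjusted p = 0.874 by edgeR), and 0.48 (SE 0.24) without stressed replicate 3.

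Fosb, a close relative of Fos known for slower decay of its short protein form, was counted at 111, 140.0, 423, 164 and 169 CPM in stressed replicates 1 to 5. In non-stressed replicates 1 to 5 it stood at 74.7, 34.0, 41.2, 253 and 132 CPM. The pattern was that of Fos with wider swings, since non-stressed replicates 2 and 3 were lowest and non-stressed replicate 4 was exceeded by stressed replicate 3 alone. The log2 fold change was 0.92 (SE 0.48, adjusted p = 0.898 by edgeR), and 0.45 (SE 0.45) without stressed replicate 3.

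Fosl2, also called Fra-2, which lacks the strong activation domain of Fos and is known to accumulate later, was the most even of the family. It was counted at 262, 313, 225, 229.8 and 251 CPM in stressed and 310.1, 203, 237, 275 and 253 CPM in non-stressed replicates 1 to 5. Stressed replicate 3 was the lowest stressed library here, not the highest. Its fold change on the log2 scale was 0.01 (SE 0.11, adjusted p = 0.998 by edgeR), and 0.05 (SE 0.12) without stressed replicate 3, with a sign that depended on which library was left out. Per kilobase, the ratio of Fos to Fosl2 was 33.1 in stressed replicate 3, 9.92 to 17.4 in the other 4 stressed libraries and 6.91 to 16.0 in the non-stressed ones.

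Of the Jun family, Jun had the widest spread in both groups on the log2(CPM + 1) scale, although in CPM the SD of the more abundant Junb was larger. Jun, the strongest activator of the family, was counted at 116, 81.7, 419, 302 and 223 CPM in stressed replicates 1 to 5, against 80.5, 107, 70.8, 271 and 179 CPM in non-stressed replicates 1 to 5. The higher levels, all above those of the other 5 libraries, occurred in replicates 3, 4 and 5 of the stressed and in 4 and 5 of the non-stressed group, so the groups overlapped widely. Its log2 fold change was 0.69 (SE 0.42, adjusted p = 0.940 by edgeR), and 0.35 (SE 0.41) without stressed replicate 3.

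Junb, which can restrain Jun and is abundant in myeloid cells, was counted at 646, 753, 1445, 651 and 662 CPM in stressed replicates 1 to 5. The non-stressed replicates 1 to 5 held 702, 540.0, 544, 707 and 551 CPM. Apart from stressed replicate 3 the libraries lay between 540.0 and 753 CPM, and only stressed replicates 2 and 3 exceeded all non-stressed ones. The log2 fold change was 0.45 (SE 0.20, adjusted p = 0.874 by edgeR), and 0.16 (SE 0.10) without stressed replicate 3. Junb overlaps the peroxiredoxin gene Prdx2 on the opposite strand by 351 bases, and although the library kit is stranded, the strand setting of the counting is not stated. Prdx2 was counted at 119.9 to 138 CPM in stressed and 107 to 111 CPM in non-stressed libraries, far below Junb, and its log2 fold change was 0.23. Jun, Jund and Atf3 overlap minor annotated transcripts of which only Junos, antisense to Jun, had reads, at 99 in all.

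Jund, the Jun gene that resting cells express most steadily, stood at 81.1, 102, 127, 84.8 and 91.0 CPM in stressed and 81.9, 81.2, 69.6, 99.5 and 86.2 CPM in non-stressed replicates 1 to 5. Stressed replicate 3 was again the highest, by 1.24 times over the next library. On the log2 scale the fold change was 0.22 (SE 0.13, adjusted p = 0.940 by edgeR), and 0.11 (SE 0.11) without stressed replicate 3.

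Atf3, a stress-induced factor that in mouse macrophages represses inflammatory genes, was counted at 112, 124, 182, 136 and 108 CPM in stressed replicates 1 to 5, against 89.4, 84.7, 78.8, 152 and 115 CPM in non-stressed replicates 1 to 5. Its libraries ranked much like those of Fos, with stressed replicate 3 and non-stressed replicate 4 on top. Its log2 fold change was 0.35 (SE 0.18, adjusted p = 0.895 by edgeR), and 0.21 (SE 0.17) without stressed replicate 3.

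Ier2 stood at 231, 257, 435, 322 and 302 CPM in stressed and 246, 240.1, 248, 288 and 264 CPM in non-stressed replicates 1 to 5. The 3 stressed libraries with the numbers 3, 4 and 5 exceeded all non-stressed ones, and stressed replicate 1 lay below them all. Its fold change on the log2 scale was 0.27 (SE 0.13, adjusted p = 0.895 by edgeR), and 0.12 (SE 0.10) without stressed replicate 3.

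Egr1, the zinc finger factor that serum response elements control and that takes part in monocyte differentiation, was low in 9 libraries and high in 1. It was counted at 12, 2.97, 445, 11.0 and 12 CPM in stressed replicates 1 to 5, against 5.13, 11.0, 7.49, 11.9 and 11.1 CPM in non-stressed replicates 1 to 5. In stressed replicate 3 it reached 37.0 times the next highest library, on 8026 reads, and the other 9 libraries lay within 2.97 to 12 CPM. Its log2 fold change of 3.37 (SE 1.08, adjusted p = 0.829 by edgeR) rested on that library, and was 0.03 (SE 0.37) without it. The stressed mean without that library was 9.50 ± 4.38 CPM (SD, n = 4), against a non-stressed mean of 9.31 ± 2.88 CPM (SD, n = 5). Per kilobase, the ratio of Egr1 to Fos was 0.129 in stressed replicate 3 and at most 0.0152 in any other library.

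Egr2, its relative with roles in myeloid and lymphoid cells, had the lowest level of the 10 genes. It stood at 0.600, 0.710, 5.66, 1.13 and 1.75 CPM in stressed and 0, 2.43, 0.227, 0.629 and 1.57 CPM in non-stressed replicates 1 to 5. Stressed replicate 3 was again the highest, with 102 of the 373 reads of all libraries. A log2 fold change of 1.01 had a standard error of 0.99 (adjusted p = 0.960 by edgeR), and without stressed replicate 3 it was 0.11 (SE 1.10). Reads varied widely within the non-stressed group, at 0, 93, 8, 16 and 45 in replicates 1 to 5.

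Reads of Ddx3y, from the Y chromosome, divided the libraries. Ddx3y passed 100 reads in 6 of them, 3 per group, stressed replicate 3 among these. The other 4, 2 per group, had 0 Ddx3y reads and are called the Xist set, after the X-linked transcript. The division used Ddx3y reads alone. For Fos the difference between the groups in mean log2 CPM (edgeR, prior count of 2) was 0.45 within the Xist set and 1.01 within the Ddx3y set. Fosb had 0.47 in the Xist set and 1.59 in the Ddx3y set, Jun had 0.44 and 0.77, and Junb had 0.09 and 0.59. For Egr1 the values were 0.68 and 1.30. Over the 10 members the medians were 0.28 and 0.68, and Fosl2 was the 1 member with a negative value, of -0.11 in the Xist set. These values within each set carry no test.

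**Figure D3:**
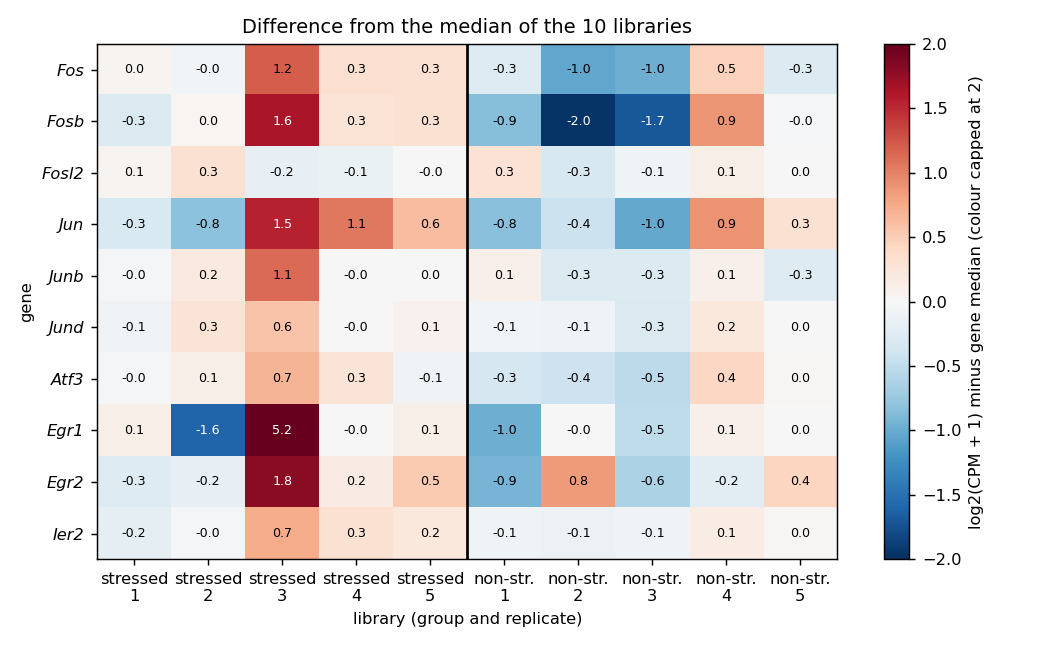
Difference of log2(CPM + 1) from the gene's median over the 10 libraries, with stressed libraries left and non-stressed libraries right of the line. Stressed replicate 3 is above the median for 9 of 10 genes, and non-stressed replicates 2 and 3 lie below it for Fos, Fosb, Jun, Junb, Jund, Atf3 and Ier2.

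Stressed replicate 3 held the highest level of 9 of the 10 members, all but Fosl2, whereas it was the highest library for 9.88% of the genes tested. Of the 8221 genes at 10 CPM or more in that library, 0.219% exceeded 1.5 times the highest of the other 9 libraries, which is 18 genes. The 18 included 4 of the 9 members at that level, Egr1, Junb, Fos and Fosb, at 37.0, 1.92, 1.69 and 1.67 times. A further 5 of the 18 were of the 20 other immediate early genes at that level. These were Ppp1r15a, a stress-induced phosphatase subunit, the kinase gene Plk3, the survival gene Ier3, the MAP kinase phosphatase gene Dusp2 and Ier5. Ppp1r15a stood at 200.5 CPM in stressed replicate 3, against at most 100.5 CPM in any other library, and Plk3 at 32.0 against at most 16.9 CPM. In the other 9 libraries 0 to 51 genes exceeded 1.5 times the rest, and 0 members did in any of them.

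Outside the immediate early lists, with unnamed predicted genes and pseudogenes left out, the highest such ratios were those of Ccl2, a monocyte chemokine on the list of AP-1 and Egr targets, at 25.9 CPM against at most 13.1, and the kinase gene Pim1 at 429 CPM against at most 232. Clmn and Mtln were next, at 10.7 CPM against at most 6.23 and 10.2 CPM against at most 6.33. The erythroid markers Alas2 and Hba-a2 were also among the 18 genes, and the 7 erythroid markers summed to 5528 CPM in stressed replicate 3. That was the highest of the 10 libraries, in a range of 1172 to 5528 CPM in stressed and 1333 to 2781 CPM in non-stressed ones, and the part of these markers in the result was not tested. The sums of endothelial, monocyte, neutrophil, B cell and T cell markers in that library ranked between 5 and 9 of 10. Those of dendritic cell markers and of mast cell and basophil markers ranked lowest. Platelet markers ranked 4, smooth muscle markers 3 and the fibroblast list 2 in that library. Of the 12 endothelial markers 8 were at 0 there, and of the 8 fibroblast markers 7 were. Across the groups, all 7 erythroid markers had a higher fold change in stressed libraries, as had 8 of 11 neutrophil markers, while 7 of 9 T and NK cell markers were lower. Platelet markers summed to 147 to 309 CPM in stressed and 98.5 to 294 CPM in non-stressed libraries, with 7 of 7 higher by fold change. B cell markers summed to 89.1 to 217 CPM in stressed and 70.4 to 359 CPM in non-stressed libraries, with 6 of 6 lower. The fibroblast list summed to 189 to 256 CPM in stressed and 112 to 166 CPM in non-stressed libraries, carried by its 1 tested gene, Pi16. The part of these markers in the members' values was not tested either.

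**Figure D4:**
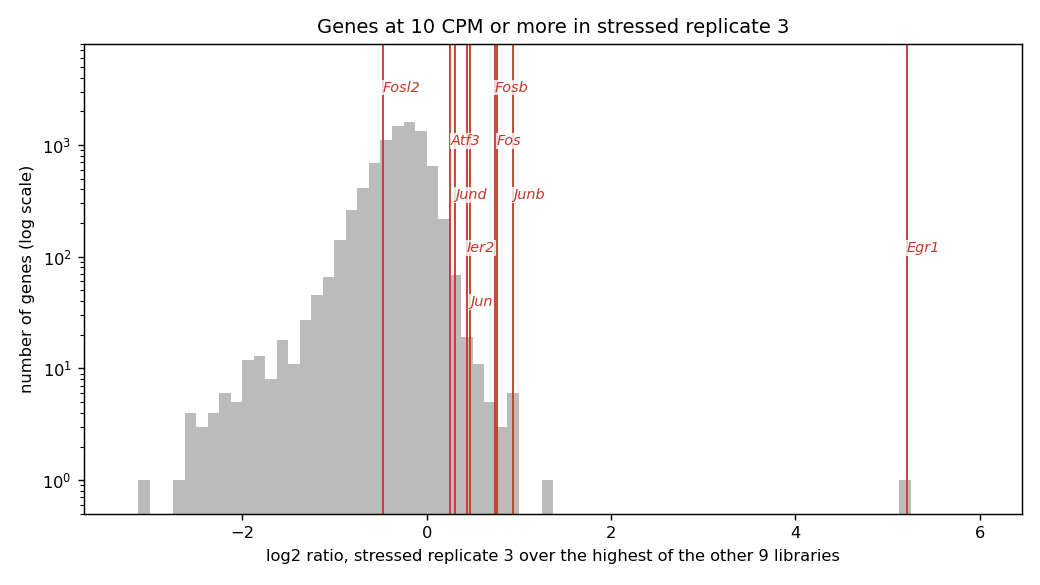
Distribution over 8221 genes at 10 CPM or more in stressed replicate 3 of the log2 ratio of that library to the highest of the other 9 (log scale on the y axis), with red lines at the 9 members in this set. Egr1 lies alone at the right, at a ratio of 37.0, Junb, Fos and Fosb lie in the right tail, and Fosl2 lies left of 0.

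The spread within the non-stressed group, to which stressed replicate 3 does not belong, was wide for some members and nearer that of other genes for others. On the log2(CPM + 1) scale the SD of Fosb was 1.18, larger than for 99.9% of 1745 tested genes of like level, whose median SD was 0.139. Jun had an SD of 0.805, larger than for 99.9% of 1414 such genes, and Fos 0.613, larger than for 99.2% of 254. Atf3 had 0.387 (97.2% of 1569 genes) and Fosl2 0.228 (90.7% of 767 genes). Egr2 had 0.737 (92.5% of 2222 genes), Junb 0.203 (85.7% of 251 genes) and Egr1 0.455 (76.2% of 1356 genes). Ier2, at 0.107, and Jund, at 0.183, were nearer the middle, above 46.2% and 73.8% of their like-level genes. Among the 4 stressed libraries without replicate 3 the SD of Fos was 0.183 and that of Fosb 0.277, still above 86.6% and 92.6% of their like-level genes. Jun kept a wide SD of 0.855, above 99.7% of its like-level genes. Egr1 (95.6%), Ier2 (89.1%) and Fosl2 (80.8%) also lay above most of theirs. The SDs of Atf3 (52.7%), Junb (48.8%) and Jund (44.9%) were near the middle there, and that of Egr2 (17.3%) was below it.

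The wide non-stressed spread followed particular libraries. Non-stressed replicate 4 was the highest of its group for 8 of 10 members, all but Fosl2 and Egr2, and it is the highest of that group for 21.5% of the genes tested. It held 1.64 times the Fos, 1.92 times the Fosb and 1.51 times the Jun of the next non-stressed library. Its Egr1, at 11.9 CPM, was 1.07 times that of the next one. Without this library the log2 fold changes of Fos, Fosb and Jun were 1.04, 1.52 and 1.07, and their adjusted p-values by edgeR were 0.731, 0.829 and 0.864.

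The heat shock genes Hspa1a and Hspa1b, near-identical copies that can share reads and that cells induce under handling and protein stress, had their high and low values in the same libraries. Hspa1b was counted at 14.1, 88.2, 125, 59.8 and 81.8 CPM in stressed replicates 1 to 5, against 55.3, 5.36, 2.35, 97.9 and 41.3 CPM in non-stressed replicates 1 to 5. Its highest libraries in each group were stressed replicate 3 and non-stressed replicate 4, the same as for Fos and Fosb, and its lowest were stressed replicate 1 and non-stressed replicates 2 and 3. The whole heat shock list was less uniform, as 2 of its 9 tested members were highest in stressed replicate 3. The log2 fold change of Hspa1b was 0.87 (SE 0.73, adjusted p = 0.950 by edgeR) and that of Hspa1a 0.96 (SE 0.67, adjusted p = 0.950). Without stressed replicate 3 they were 0.60 and 0.58. Hspa1a had a difference of -0.74 within the Xist set and 2.84 within the Ddx3y set. The part of these genes in the AP-1 result was not tested.

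The shares of the Fos and Jun families in the AP-1 transcripts varied less over the libraries than the sum did. The 7 subunit genes summed to 805, 847, 1782, 954 and 925 CPM per kb in stressed replicates 1 to 5, against 743, 544, 538, 1046 and 723 in non-stressed replicates 1 to 5. Stressed replicate 3 had the largest sum, and the remaining stressed libraries lay between 805 and 954, within the non-stressed range. The Fos family held 44.3% to 50.1% of this sum in stressed and 34.5% to 50.1% in non-stressed libraries. Jun family genes held 44.5% to 48.9% in stressed and 43.2% to 58.3% in non-stressed libraries. Fos and Junb were the main subunits of their families in all 10 libraries, with Fos at 29.6% to 44.3% and Junb at 29.4% to 44.0% of the sum. In stressed replicate 3 the shares of Fos, at 43.2%, and Junb, at 35.3%, lay within the range of the other libraries. Only the shares of Fosl2, at 1.31%, Jund, at 4.27%, and Atf3, at 4.74%, were below all others.

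**Figure D5:**
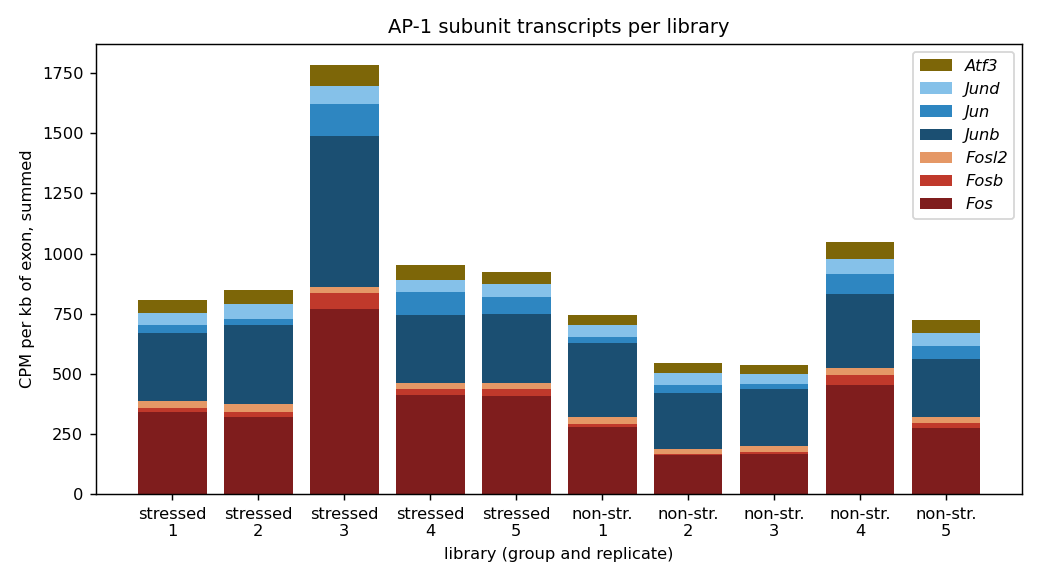
Sum of the CPM per kb of exon of the 7 AP-1 subunit genes in each library, stacked by gene, with stressed libraries left of non-stressed ones. Stressed replicate 3 reaches 1782 CPM per kb and non-stressed replicate 4 reaches 1046, while Fos and Junb make up the larger part of every bar.

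The factors that control these genes and the genes known to follow them gave no call. Of the 14 tested genes among the other AP-1 and Egr family members, 6 were higher and 8 lower, with a median of -0.05 on the log2 fold change scale and 0 past the test in either direction. Batf, a partner of Jun proteins in immune cells, had a log2 fold change of 0.29 (SE 0.17), and -0.10 within the Xist set. Nab2, a corepressor of Egr factors that Egr1 is known to induce, had -0.52 (SE 0.31), and -0.83 without stressed replicate 3. It stood at 17.0 CPM in stressed replicate 3. The other stressed libraries held 5.83 to 10.3 CPM and the non-stressed ones 7.83 to 18.8 CPM. Egr3 did not exceed 0.944 CPM in any library, and Egr4 had 0 reads in all.

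Of 22 upstream kinases and factors, 9 were higher and 13 lower, with a median of -0.07 and 0 past the test. Elk3, a partner of SRF, had a log2 fold change of 0.18 (SE 0.08), its relative Elk4 -0.16 (SE 0.10) and the SRF coactivator gene Mrtfb -0.30 (SE 0.15), and 0.02 within the Xist set. Among 23 other immediate early genes tested, 18 were higher and 5 lower, with a median of 0.13 and 0 past the test, and 10 were highest in stressed replicate 3. Without that library 14 were higher and 9 lower, with a median of 0.06. Dusp1, a MAP kinase phosphatase, averaged 409.6 ± 92.9 CPM in stressed and 279 ± 117 CPM in non-stressed libraries (SD, n = 5 each). Ier3 had a log2 fold change of 1.05 (SE 0.37), and 0.61 without stressed replicate 3. Dusp6, the ERK phosphatase, ran the other way at 396 ± 40.3 CPM in stressed and 483 ± 44.7 CPM in non-stressed libraries (SD, n = 5 each). Its log2 fold change was -0.28 (SE 0.08), at an adjusted p of 0.777 by edgeR. In 4 of 5 stressed libraries it lay below all non-stressed ones.

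Of the 12 tested textbook targets of AP-1 and Egr, 6 were higher and 6 lower, with a median of 0.02, which was -0.33 without stressed replicate 2, and 0 past the test. Thbs1, which encodes thrombospondin, had a log2 fold change of 0.93 (SE 0.36), Plaur, the urokinase receptor gene, 0.26 (SE 0.12) and the cytokine gene Tnf -0.61 (SE 0.24). Without stressed replicate 3 these were 0.96, 0.19 and -0.76. Tnf averaged 12.4 ± 3.84 CPM in stressed and 18.9 ± 4.86 CPM in non-stressed libraries (SD, n = 5 each). The 9 tested heat shock genes gave a median of 0.11, with 7 higher and 2 lower. The 11 tested glucocorticoid response genes all had a fold change above 0, against 50.9% of all genes tested, with a median of 0.32 and 0 past the test. Without stressed replicate 3, highest for 2 of the 11, that median was 0.39. Fkbp5, which glucocorticoids induce, averaged 39.2 ± 12.5 CPM in stressed and 17.8 ± 5.0 CPM in non-stressed libraries (SD, n = 5 each), with 40.4 CPM in stressed replicate 3. Its adjusted p was 0.349 by edgeR and 0.00356 by DESeq2. Cebpd had a log2 fold change of 0.28 (SE 0.10), and Mt1, a metallothionein gene, averaged 4.32 ± 1.56 CPM in stressed and 1.34 ± 0.859 CPM in non-stressed libraries (SD, n = 5 each). Dusp1 and Sgk1 belong to both the immediate early and the glucocorticoid response list. In each of these 6 lists edgeR called 0 genes. At an unadjusted p under 0.05 it had 5 of the 11 glucocorticoid response genes higher, against 2.59% of all genes tested, and 0 to 2 in either direction in each of the other lists.

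The gene outside the members whose pattern lay nearest to that of Fos over the 10 libraries was Pim1. The measure was the mean absolute difference of log2(CPM + 1), centred on each gene's mean, over 8269 genes at an average of 10 CPM or more. Pim1 lay 0.202 from Fos, where the median gene lay 0.526 away. It stood at 127 to 429 CPM, highest in stressed replicate 3 and next in non-stressed replicate 4. Slc16a6 (0.261), Zfp36, which encodes a messenger RNA decay factor (0.289), Pim3 (0.297) and Mfsd7a (0.308) followed. Of the members, Atf3 lay at position 3 of all genes and Junb at position 15, whereas Fosb (position 200), Jun (1071) and Egr1 (8167) were farther away. Without stressed replicate 3 the 5 nearest were Slc16a6, Pim1, Tm7sf2, Coq10a and Tstd1, and Atf3 was at position 4 of all 8265 genes. Junb then fell to position 390, Fosb to 1244 and Jun to 5613, where Jun lay 0.483 away and the median gene 0.451. Ier2 went from position 43 to 264 and Jund from 171 to 341, while Fosl2 came nearer, from 4096 to 1981.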

How the data were processed

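The raw counts of reads per Ensembl gene were made by the authors with Trimmomatic, STAR and featureCounts on mm10, per the submitters' processing notes, which name no versions. Libraries came from a stranded kit, per the labels' protocols. Of 48526 identifiers, 48144 matched a symbol in GENCODE M21, and unmatched ones held at most 0.0344% of a library's counts. The members and lists were chosen with earlier results of these data known. Named besides the members were up to 3 genes with the smallest p per list, the 8 highest ratios in stressed replicate 3 and the 5 patterns nearest to Fos. CPM used total counts. The groups were compared with edgeR 4.0.16 (filterByExpr, TMM, quasi-likelihood test, Benjamini-Hochberg adjustment over 13334 genes, threshold 0.05), checked on simulated counts. Alternatives were DESeq2 1.42.0, limma-voom (limma 3.58.1), RLE factors, other filters, a replicate block, a Ddx3y term and each library left out. No pair of libraries within a group was a duplicate (chi-square per degree of freedom at least 22.4).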

Additional observations from a re-analysis of the deposited data

Results flagged for a closer look

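Stressed replicate 3 stood far from the other 4 stressed libraries for 5 members and 1 other gene. The measure was its gap to the nearest library as a share of the group's range, against Dixon's critical value of 0.71 for 5 samples. That share was 0.979 for Egr1, 0.866 for Junb, 0.813 for Fosb, 0.797 for Fos and 0.772 for Egr2. It was 0.907 for the metallothionein gene Mt1, at 7.10 CPM there and 3.77 CPM in the next stressed library. In all, 56 gene and group combinations over 28 genes were examined and 6 were beyond the critical value. About 1 in 20 sets of 5 normally distributed values would pass it, and CPM were used without a log transform. The 6 all lay in the same library, and genes of 1 library are not independent. Stressed replicate 3 was also singled out with these values known, so the count describes that library and is no test of it.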

How the results depend on the processing

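Of all tested genes edgeR called 1, against 19 with DESeq2, 10 without the low-count filter and 4 with the replicate block, and 1 to 2 when each library was left out in turn (2 without non-stressed replicate 5). In none of the 17 alternative fits was a member called. All members except Fosl2 kept a positive log2 fold change in all 17, lowest without stressed replicate 3. The sign of Fosl2 was positive in 12, its values with each library left out ran between -0.0777 and 0.0795, and it was negative without stressed replicate 1 (-0.0016) or 2 (-0.0777) and without non-stressed replicate 2 (-0.0686), 3 (-0.0227) or 5 (-0.0001). The median over the members lay between 0.14 and 0.71 with each library left out, the extremes without stressed replicate 3 and without non-stressed replicate 4. Fkbp5 passed with DESeq2 (adjusted p = 0.00356), edgeR without the filter (0.0106) and edgeR with the replicate block (0.0279), and its adjusted p over the other fits was 0.174 to 0.841. The median of the AP-1 and Egr targets was -0.33 without stressed replicate 2. The causes were not tested.

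Same-numbered libraries correlated at -0.027 to 0.156, over 0.1 in 4 of 5 pairs. Pairing was taken only where every same-numbered pair exceeded 0.1. The fit without the block was therefore kept, although 4 of 5 stressed libraries correlated best with their own number. Libraries of unlike number also correlated, in blocks. Stressed replicates 3, 4 and 5 correlated at 0.0902 to 0.126 with non-stressed replicates 4 and 5, and at -0.158 to -0.027 with the others. For stressed replicates 1 and 2 the same values were -0.157 to -0.142 and 0.0242 to 0.156. The part of these blocks in the members' values was not tested. With the replicate block the median over the members was 0.49. With levels not divided by length, Fosl2 moved to position 4, Jun to 5, Fosb to 6, Atf3 to 7 and Jund to 8. Egr2 rests on 373 reads in all.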
